A study of Homo sapiens with 9 samples.

Results

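The comparison described here sets HL-60 clone 15 cells that carried a RhoH construct against HL-60 clone 15 cells that carried a GFP construct, both treated with 4-hydroxytamoxifen (4-OHT). It uses 6 of the 9 arrays of the series, chosen by sample title: 3 titled HL-60-RhoH + 4-OHT and 3 titled HL-60-GFP + 4-OHT. HL-60 is an established human promyelocytic leukaemia line, and clone 15 is a subline used as a model of eosinophil precursors. Each construct was delivered by lentivirus and switched on by 100 nM 4-OHT, a tamoxifen metabolite that binds the oestrogen receptor. The other 3 arrays are RhoH cells without 4-OHT (uninduced) and are given beside some genes. The 3 samples of a group are biological replicates per the series' design text. No GFP cells without 4-OHT are among the arrays used here. The product of the construct and any other difference between the RhoH and the GFP cell populations therefore cannot be told apart in this comparison, and both groups received the drug. How many clones or integration events each population held is not given in the sources used here.

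RhoH, also called TTF, is a GTP-binding protein that is made in blood cells. It lacks GTPase activity and is thought to be controlled by its amount and by phosphorylation. In lymphocytes it takes part in antigen receptor signalling. Promyelocytes, the stage at which HL-60 cells are held, make the proteins of the azurophil (primary) granules, and lose that expression as they mature towards neutrophils, monocytes or eosinophils.

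RHOH, the gene carried by the construct, was examined first because it checks the labels. Its log2 signal was 5.60, 5.73 and 5.45 in replicates 1 to 3 titled RhoH + 4-OHT and 5.90, 5.94 and 5.94 in those titled GFP + 4-OHT. All 3 RhoH arrays lay below all 3 GFP arrays, so the gene's signal ran against the labels. The difference was -0.33 (SE 0.09) on the log2 scale, with an adjusted p of 0.0717 by limma and an exact two-sided permutation p of 0.1, the smallest that 3 arrays against 3 can give. Without RhoH + 4-OHT replicate 2 the adjusted p was 0.0495, with a difference of -0.40. The uninduced RhoH arrays read 5.23, 5.25 and 5.15, and the induced RhoH arrays were 0.38 above them (limma adjusted p 0.0451). Which part of the transcript the single RHOH probe set covers, and whether RNA from the construct would bind it, is not given in the sources used here. For that reason the arrays are called RhoH-labelled and GFP-labelled throughout, and every direction below rests on those labels.

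The cell type on the labels was checked against markers. Of 12 measured genes of HL-60 identity, the myeloid granule genes MPO, AZU1, PRTN3 and CTSG were well expressed in both groups. The summed linear signal of the 12 ranged from 24137 to 28772 in RhoH-labelled arrays and from 13233 to 13680 in GFP-labelled arrays. These granule genes also belong to the azurophil group described below, so the sum is not independent of that result. Of the 12, limma called 6 higher and 1, KIT, lower in RhoH-labelled arrays. By limma, 0 of the 11 lymphoid, 8 erythroid and megakaryocyte, and 7 stromal or epithelial markers were called different, and 2, 1 and 0 of them had an unadjusted p under 0.05. Their summed signals overlapped for lymphoid genes (1408 to 1716 and 1497 to 1575) and for stromal genes (562 to 812 and 645 to 688), and did not overlap for erythroid and megakaryocyte genes (537 to 650 and 515 to 531). Among these, NKG7 (difference 0.54, adjusted p 0.121) and KLF1 (0.53, adjusted p 0.101) had the largest values. The 6 arrays had medians of 5.43 to 5.55 over all probe sets. RhoH-labelled arrays spread more around their group mean (SD over genes 0.162 to 0.204) than GFP-labelled arrays (0.0904 to 0.0959).

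Across 14778 named genes, each represented by 1 probe set, 664 differed at a limma adjusted p under 0.05, which is 4.49% of the genes tested. Of these, 257 (1.74%) were higher and 407 (2.75%) lower in RhoH-labelled cells, and they are referred to as called. For 506 of the 664 the uninduced RhoH mean lay on the same side of the GFP-labelled mean as the induced RhoH mean, and further away. For 150 it lay between the induced RhoH and the GFP-labelled mean, and for 8 beyond the GFP-labelled mean. The same GFP-labelled arrays serve as the reference in each case. A change of at least 2-fold was seen for 32 called genes higher (0.217%) and 84 lower (0.568%). The median difference over all genes was 0.03, and 22.5% of all genes had arrays that did not overlap between the groups (11.1% higher, 11.4% lower), including all 664 called genes. Called genes were found among 5.13% of protein-coding genes, 2.12% of lncRNA genes and 1.47% of microRNA genes. Leaving out GFP-labelled replicate 1, 2 or 3 reduced the calls to 302, 279 and 285. Leaving out RhoH-labelled replicate 1 turned the balance to 319 higher and 296 lower.

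**Figure D1:**
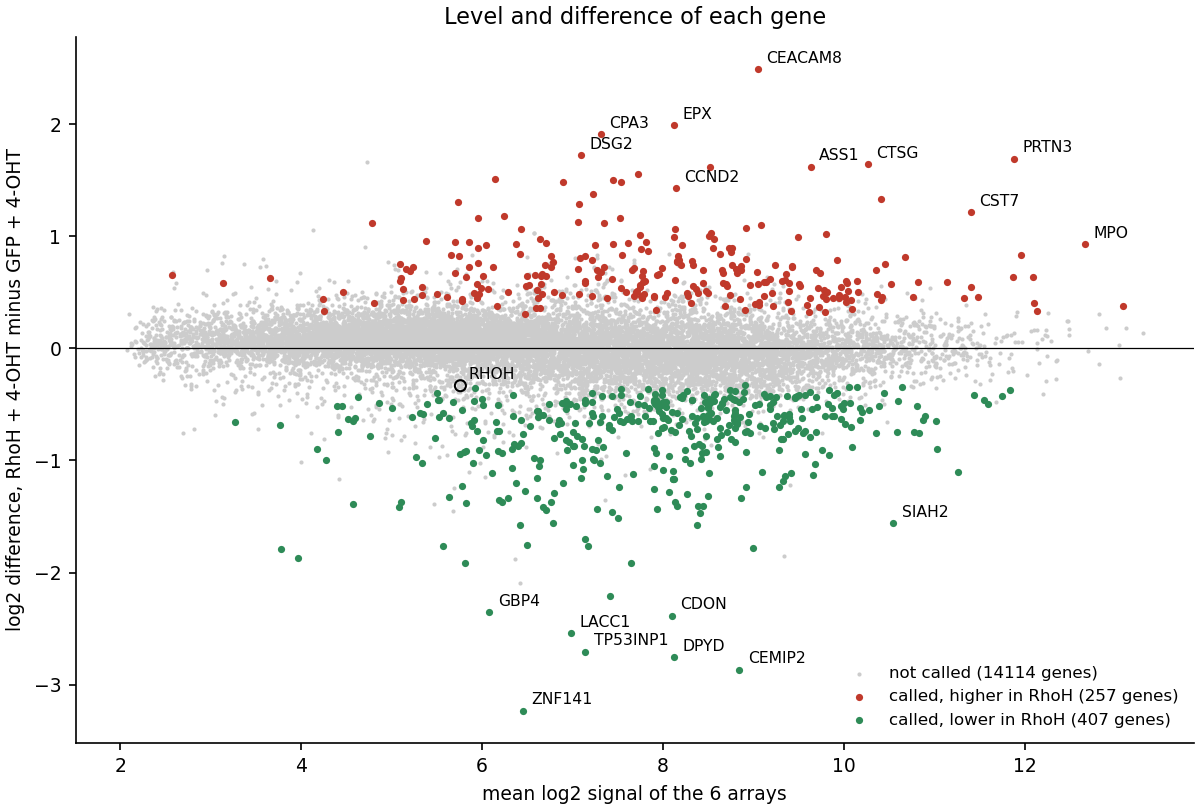
Each point is 1 of the 14778 genes, with its mean log2 signal over the 6 arrays on the horizontal axis and the log2 difference (RhoH + 4-OHT minus GFP + 4-OHT) on the vertical axis. Red points are the 257 genes called higher and green points the 407 called lower in RhoH-labelled arrays. The most extreme points are CEACAM8 at 2.49 and ZNF141 at -3.23, and RHOH (ring) lies at -0.33 among the genes that were not called.

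The genes of the azurophil granule held the largest called share of the groups with 10 or more measured members. Of 10 measured, 6 were higher in RhoH-labelled cells (PRTN3, CTSG, AZU1, CST7, MPO and BPI) and 1, CD63, was lower. The group's median difference was 0.68, against 0.03 over all genes, and 70.0% of it was called against 4.49% of all genes. In these bulk samples a difference in the number of cells that make a transcript and a difference in RNA per cell cannot be told apart. PRTN3, which encodes the serine protease proteinase 3, had a log2 signal of 12.38, 12.81 and 12.99 in RhoH-labelled replicates 1 to 3 and 11.03, 11.07 and 11.002 in GFP-labelled replicates 1 to 3. The groups were well separated, and the GFP-labelled arrays lay close together. The difference was 1.69 (SE 0.14), or 3.23-fold, with an adjusted p of 0.000134. CTSG, the gene of the granule protease cathepsin G, read 11.002, 10.84 and 11.40 against 9.36, 9.55 and 9.42, a difference of 1.64 (SE 0.13, adjusted p 0.000134). AZU1, the gene of the antimicrobial protein azurocidin, read 10.82, 11.19 and 11.20 against 9.82, 9.66 and 9.74, a difference of 1.33 (SE 0.11, adjusted p 0.000173). In both genes every RhoH-labelled array lay above every GFP-labelled array.

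CST7, the gene of cystatin F, an inhibitor of lysosomal proteases, was higher by 1.22 (SE 0.14, adjusted p 0.000978). MPO, the gene of myeloperoxidase, had a log2 signal of 13.06, 13.17 and 13.14 in RhoH-labelled and 12.26, 12.17 and 12.16 in GFP-labelled arrays. Its difference of 0.93 (SE 0.08, adjusted p 0.000157) was smaller than those of the proteases, and the arrays within each group lay close together. BPI, whose product binds bacterial lipopolysaccharide, was higher by 0.43 with an adjusted p of 0.0477. The BPI call was lost without any 1 of the GFP-labelled arrays, without RhoH-labelled replicate 2 or 3, and without uninduced replicate 2 or 3, with adjusted p reaching 0.175. CD63, a tetraspanin of granule and lysosome membranes, went the other way, reading 8.53, 8.41 and 8.53 against 9.17, 9.11 and 9.16, a difference of -0.66 (adjusted p 0.00153). The 3 members that were not called, LYZ, SRGN and CTSC, had differences of -0.01 to 0.14.

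**Figure D2:**
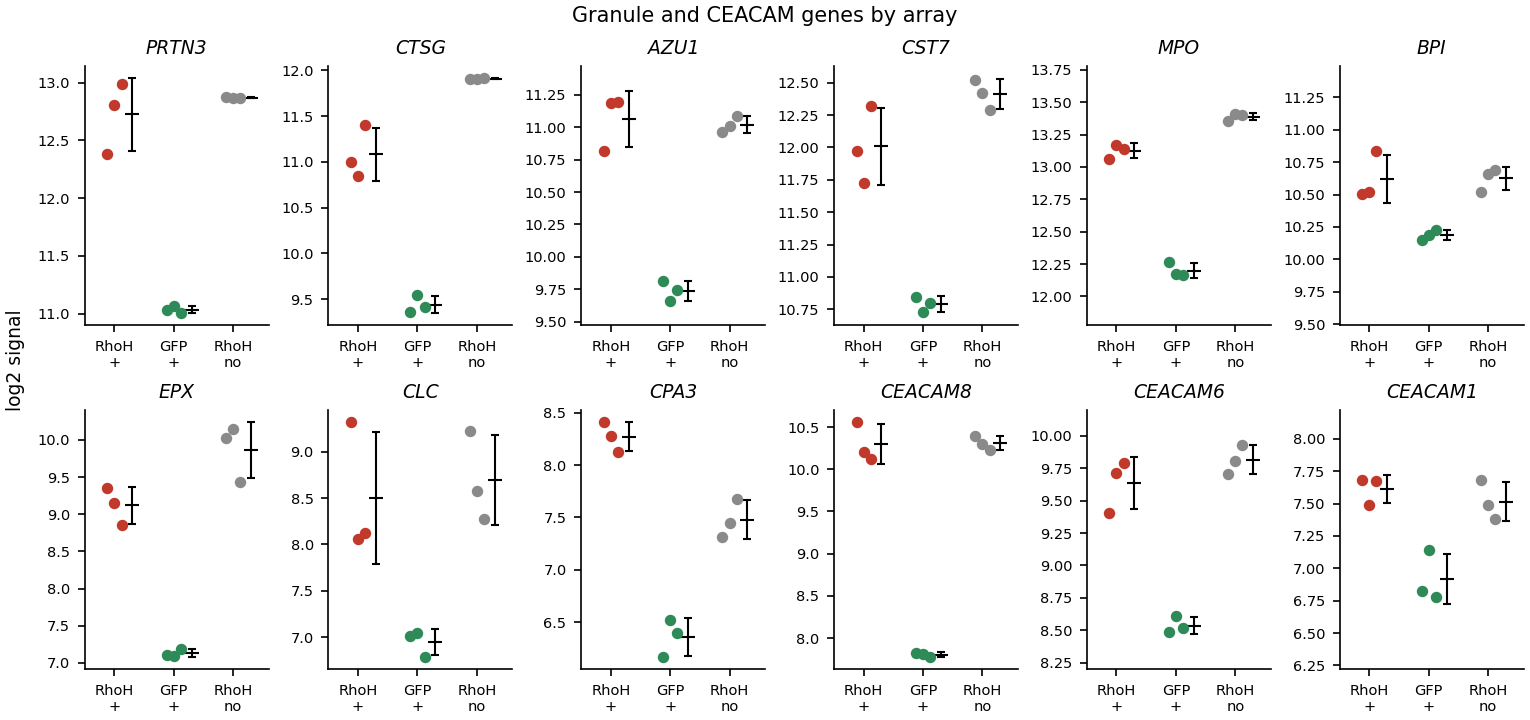
Log2 signal of 12 granule and CEACAM genes by array (points) with group mean and SD (bars), for RhoH + 4-OHT (red), GFP + 4-OHT (green) and RhoH without 4-OHT (grey), 3 arrays each. In each gene shown the 3 red points lie above the 3 green points, for example 10.13 to 10.56 against 7.77 to 7.83 for CEACAM8, and each panel has its own vertical range.

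In the uninduced RhoH arrays the same granule genes also stood above the GFP-labelled arrays, with which this difference shares its reference. PRTN3 was 1.84 above GFP there, CTSG 2.47, AZU1 1.28, CST7 1.62 and MPO 1.19. CTSG was lower in induced than in uninduced RhoH arrays, by a difference of -0.83 (adjusted p 0.00703), whereas the PRTN3 difference between them was -0.15 (adjusted p 0.752). CD63 was -2.18 in uninduced RhoH relative to GFP-labelled cells, and 1.52 higher with 4-OHT than without it.

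Promoter windows are shown for PRTN3, AZU1 and CTSG, the called azurophil genes with a sequence in the promoter set used. MPO, BPI and CST7 had none there. AZU1 and PRTN3 lie side by side and moved together. The windows are from RefSeq, assembly GRCh38.p14, and run from 250 bases before to 50 bases after the annotated start. They are written 5′ to 3′ on the gene's strand. Capitals mark matches, on either strand, to a C/EBP-like motif (TTNNGNAA), a PU.1-like motif (GGAAGT) or a RUNX-like motif (TGTGGT). C/EBP and PU.1 proteins are transcription factors of granulocyte development.
PRTN3 (chr19:840749-841048, plus strand): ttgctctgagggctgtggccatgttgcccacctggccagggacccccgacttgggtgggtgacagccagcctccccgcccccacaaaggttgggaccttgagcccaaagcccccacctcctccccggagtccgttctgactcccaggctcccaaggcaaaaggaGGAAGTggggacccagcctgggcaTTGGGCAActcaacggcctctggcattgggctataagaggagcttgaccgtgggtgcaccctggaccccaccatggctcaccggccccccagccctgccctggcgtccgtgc
AZU1 (chr19:827587-827886, plus strand): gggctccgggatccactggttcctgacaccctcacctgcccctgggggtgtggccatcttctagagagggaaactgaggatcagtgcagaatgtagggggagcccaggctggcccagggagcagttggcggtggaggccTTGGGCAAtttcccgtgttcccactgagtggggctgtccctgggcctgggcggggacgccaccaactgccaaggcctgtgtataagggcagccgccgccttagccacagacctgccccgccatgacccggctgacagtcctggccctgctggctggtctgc
CTSG (chr14:24576201-24576500, minus strand): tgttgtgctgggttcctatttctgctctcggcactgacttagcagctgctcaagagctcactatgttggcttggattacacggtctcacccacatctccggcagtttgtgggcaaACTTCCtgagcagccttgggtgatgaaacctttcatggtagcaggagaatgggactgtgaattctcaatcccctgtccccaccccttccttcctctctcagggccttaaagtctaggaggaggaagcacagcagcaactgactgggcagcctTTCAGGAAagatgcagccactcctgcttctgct
The C/EBP motif was present in all 3 windows, the PU.1 motif in 2 of 3 (PRTN3 and CTSG), and the RUNX motif in 0 of 3. In CTSG the C/EBP match lies within the 50 bases after the annotated start, not upstream of it. Among the 10719 promoters of tested genes the shares with a match were 29.3%, 25.5% and 10.9%. A match describes letters only and does not show binding.

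Genes of other granulocyte lineages were mixed. Of 7 measured eosinophil genes, 2 were higher and 1 lower (42.9% called against 4.49% of all genes), with a median of 0.42. EPX, the gene of eosinophil peroxidase, read 9.36, 9.15 and 8.85 in RhoH-labelled and 7.10, 7.09 and 7.19 in GFP-labelled arrays. Its difference of 1.99 (SE 0.18), or 3.97-fold, had an adjusted p of 0.000266, and the groups did not overlap. CLC, which encodes the Charcot-Leyden crystal protein galectin-10, read 9.32, 8.06 and 8.12 against 7.01, 7.05 and 6.78. RhoH-labelled replicate 1 stood more than a log2 unit above its own group, and the difference of 1.55 (SE 0.33, adjusted p 0.0266) lost its call when any 1 GFP-labelled array was left out, with adjusted p up to 0.117. ALOX5, the arachidonate lipoxygenase that starts leukotriene synthesis, was lower (-0.39, adjusted p 0.0271), a call lost without any 1 GFP-labelled array and without RhoH-labelled replicate 1 or 3. PRG3 (0.42), SIGLEC8 (0.13), SIGLEC10 (0.45) and ALOX15 (-0.10) were not called.

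Among 12 mast cell and basophil genes, 2 were higher and 1 lower (median 0.13). CPA3, the gene of the mast cell protease carboxypeptidase A3, read 8.41, 8.27 and 8.13 against 6.16, 6.52 and 6.39, and its difference was 1.91 (SE 0.13, adjusted p 4.74e-05). The groups were separate, and the uninduced RhoH arrays lay between them at 7.31, 7.45 and 7.68. GATA2, a transcription factor of progenitors, mast cells and basophils, read 9.21, 9.11 and 9.16 against 8.54, 8.48 and 8.43, a difference of 0.67 (adjusted p 0.00444). In uninduced RhoH arrays GATA2 was -0.36 relative to GFP-labelled arrays, so the 3 groups were ordered with GFP-labelled cells in the middle. KIT, the receptor of stem cell factor, was lower (-0.53, adjusted p 0.00817). The tryptase genes TPSB2 (0.43), TPSAB1 (0.16) and TPSD1 (0.17), which are near-identical copies and uncertain, were not called, nor was HDC (0.12), the gene of the enzyme that makes histamine.

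The neutrophil maturation list had 3 of 18 members higher and 1 lower (22.2% called against 4.49% of all genes). Its median was 0.02, near that of all genes. The 3 belong to the CEACAM family of adhesion glycoproteins. CEACAM8 (CD66b), a granulocyte surface antigen, had the largest difference in this direction of all genes tested, reading 10.56, 10.20 and 10.13 against 7.83, 7.81 and 7.77. The difference was 2.49 (SE 0.12), or 5.63-fold, with an adjusted p of 6.10e-06, and its level in uninduced RhoH arrays was 10.40, 10.30 and 10.23. CEACAM6 was higher by 1.10 (adjusted p 0.000483) and CEACAM1 by 0.70 (adjusted p 0.0104); the CEACAM1 call was lost without GFP-labelled replicate 1 or 3. The other 8 of the 11 measured CEACAM genes, a family chosen after its values were seen, had differences of -0.61 to 0.26. HP, the gene of haptoglobin, which binds haemoglobin and is stored in neutrophil granules, was lower at 9.09, 9.01 and 9.18 against 10.12, 10.20 and 10.34, a difference of -1.13 (adjusted p 0.000148). HPR, its close and adjacent copy, had -0.61, and signal of the pair cannot be told apart with certainty.

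Several of the 25 genes with the largest differences in the higher direction belong to no granule. ASS1, the gene of argininosuccinate synthase, which makes the precursor of arginine, read 10.42, 10.32 and 10.59 against 8.67, 8.88 and 8.92 (1.62, 3.07-fold, adjusted p 4.74e-05). It was the 1 called gene of 16 in arginine and polyamine metabolism (6.25% against 4.49% of all genes), whose median was 0.04. DSG2, a cadherin of desmosomes, read 7.49, 8.06 and 8.30 against 6.30, 6.22 and 6.17 (1.72, adjusted p 0.00135). The groups did not overlap for either gene, though RhoH-labelled replicate 1 was the lowest of its group for DSG2. Of 16 genes on the cadherin and desmosome list 3 were higher and 2 lower (31.2% called against 4.49% of all genes, median 0.20). The desmosomal plaque genes JUP (0.70) and PKP3 (0.30) were called beside DSG2. The list members called lower were PCDH9 (-1.28) and CDON (-2.38), the latter a hedgehog-binding receptor and not itself a cadherin. The PKP3 call was lost in each fit that left out 1 array of the 6 compared.

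CCND2, the gene of cyclin D2, which drives entry into the cell cycle, read 8.59, 8.88 and 9.10 in RhoH-labelled and 7.52, 7.40 and 7.38 in GFP-labelled arrays. Its difference was 1.43 (SE 0.12, adjusted p 0.00019). A second, dimmer CCND2 probe set (mean 6.41 against 8.61 over the 9 arrays) had a smaller difference of 0.60. With limma over all probe sets its adjusted p was 0.139. The other D-type cyclins, chosen after their values were seen, were not called: CCND1 had 0.30 and CCND3 -0.37 (adjusted p 0.0508). Of 49 cell cycle and replication genes 2 were higher (CCND2 and CDK6, 0.51) and 0 lower, 4.08% against 4.49% of all genes, with a median of 0.05. Without any 1 GFP-labelled array 1 was called, and without uninduced replicate 1, 4. CABLES1, whose product binds cyclin-dependent kinases, was higher by 1.12 (adjusted p 0.000553).

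TSPOAP1 and LY96 differed from most of the highest genes in where the uninduced RhoH arrays lay. TSPOAP1, the gene next to MPO, read 7.68, 7.71 and 7.51 in RhoH-labelled arrays with 4-OHT, 6.33, 6.15 and 5.99 in GFP-labelled arrays and 6.03, 6.43 and 6.35 in uninduced RhoH arrays. Its difference from GFP was 1.48 (adjusted p 0.000193) with 4-OHT and 0.11 (adjusted p 0.624) without it. LY96, the gene of MD-2, which binds lipopolysaccharide together with TLR4, read 6.99, 6.17 and 6.44, 5.38, 5.37 and 5.37 and 4.32, 4.72 and 4.56 in the same order of groups. It was 1.16 above GFP with 4-OHT (adjusted p 0.00657) and -0.84 relative to GFP without it (adjusted p 0.0115).

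The remaining genes among the 25 highest had differences between 1.12 and 1.62. They include GAL (1.62), the gene of the neuropeptide galanin, MFAP4 (1.37), a protein of the extracellular matrix, ECE1 (1.28), which processes endothelin, PIWIL4 (1.12), an Argonaute-family protein, and BICC1 (1.51), an RNA-binding protein. DENND5B (1.31), BEND6 (1.18), PRXL2C (1.17), CENPV (1.50) and ZNF347 (1.12) also belong to them. For CENPV the RhoH-labelled arrays spread from 7.58 to 8.99, and its call was lost without any 1 GFP-labelled array (adjusted p up to 0.0718). The ZNF347 call was lost without GFP-labelled replicate 1 or 2 (up to 0.0725), and that of PRXL2C without GFP-labelled replicate 1 or 3 or RhoH-labelled replicate 3 (up to 0.104). MT2A, a metallothionein, was the 1 member of 11 in that family (chosen after its values were seen) to be called, at 1.48 with an adjusted p of 0.0411. Its values of 8.85, 7.87 and 8.09 against 7.03, 6.58 and 6.76 were separate, but the call was lost without any 1 GFP-labelled array, without RhoH-labelled replicate 1 or 3 and without uninduced replicate 2.

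Of 24 haematopoietic transcription factors 4 were higher and 0 lower (16.7% called against 4.49% of all genes), with a median of 0.10. Beside GATA2 these were MYC (0.76, adjusted p 0.00469) and MYB (0.57, adjusted p 0.0218), both of proliferating progenitors, and GFI1 (0.49, adjusted p 0.0188), a transcriptional repressor needed for granulocyte development. MYC is present in extra copies in HL-60 cells, and it read 10.62, 10.83 and 11.05 against 10.17, 9.97 and 10.08 with no overlap. Without GFP-labelled replicate 1, 2 or 3 the called members numbered 2 each time, MYB and GFI1 being among those lost. SPI1, the gene of PU.1, had -0.11 and GATA1 0.05, neither called. Of the 12 HL-60 identity genes 6 were higher and 1, KIT, lower (58.3% called against 4.49% of all genes, median 0.53). ANPEP (0.14), CSF3R (0.18), CD34 (0.05) and CD38 (0.50) were not called.

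Genes of the unfolded protein and amino acid response had 9 of 22 members higher and 1 lower (45.5% called against 4.49% of all genes, median 0.30). The largest were the serine synthesis genes PHGDH (1.07, adjusted p 0.00392) and PSAT1 (1.02, adjusted p 0.00711), and ASNS (0.92), the gene of asparagine synthetase. VLDLR (0.84), ATF5 (0.80) and MANF (0.64) followed. PHGDH read 8.49, 8.42 and 9.07 against 7.59, 7.64 and 7.55, with RhoH-labelled replicate 3 the highest. CRELD2, a chaperone-like gene of the endoplasmic reticulum, was lower (7.44, 7.56 and 7.84 against 8.87, 8.998 and 8.88, -1.30, adjusted p 0.000173). The regulators ATF4, DDIT3 and TRIB3 were not called. Called members numbered 5, 6 and 5 without GFP-labelled replicate 1, 2 and 3.

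Cytosolic ribosomal protein genes had 5 of 50 higher and 0 lower (10.0% called against 4.49% of all genes, median 0.18). The 5 were RPL36 (0.70), RPL12 (0.64), RPS15 (0.54), RPS16 (0.38) and RPS27 (0.34). Arrays did not overlap for 27 of the 50, all in the higher direction, where 11.1% of all genes did so. Their median was 0.15 with arrays centred on their medians and 0.21 after a further quantile normalization. Only 2 of the 50 were called without any 1 of the GFP-labelled arrays. Many ribosomal genes have near-identical pseudogenes, so single members are uncertain. By limma 0 of 28 respiratory chain and ATP synthase genes (median 0.12) and 0 of 17 tRNA synthetases (median 0.04) were called, with 6 and 2 at an unadjusted p under 0.05. Of 37 solute carriers 2 were higher and 1 lower (8.11% against 4.49% of all genes). Only 1 was called without any 1 GFP-labelled array or without RhoH-labelled replicate 2 or 3.

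**Figure D3:**
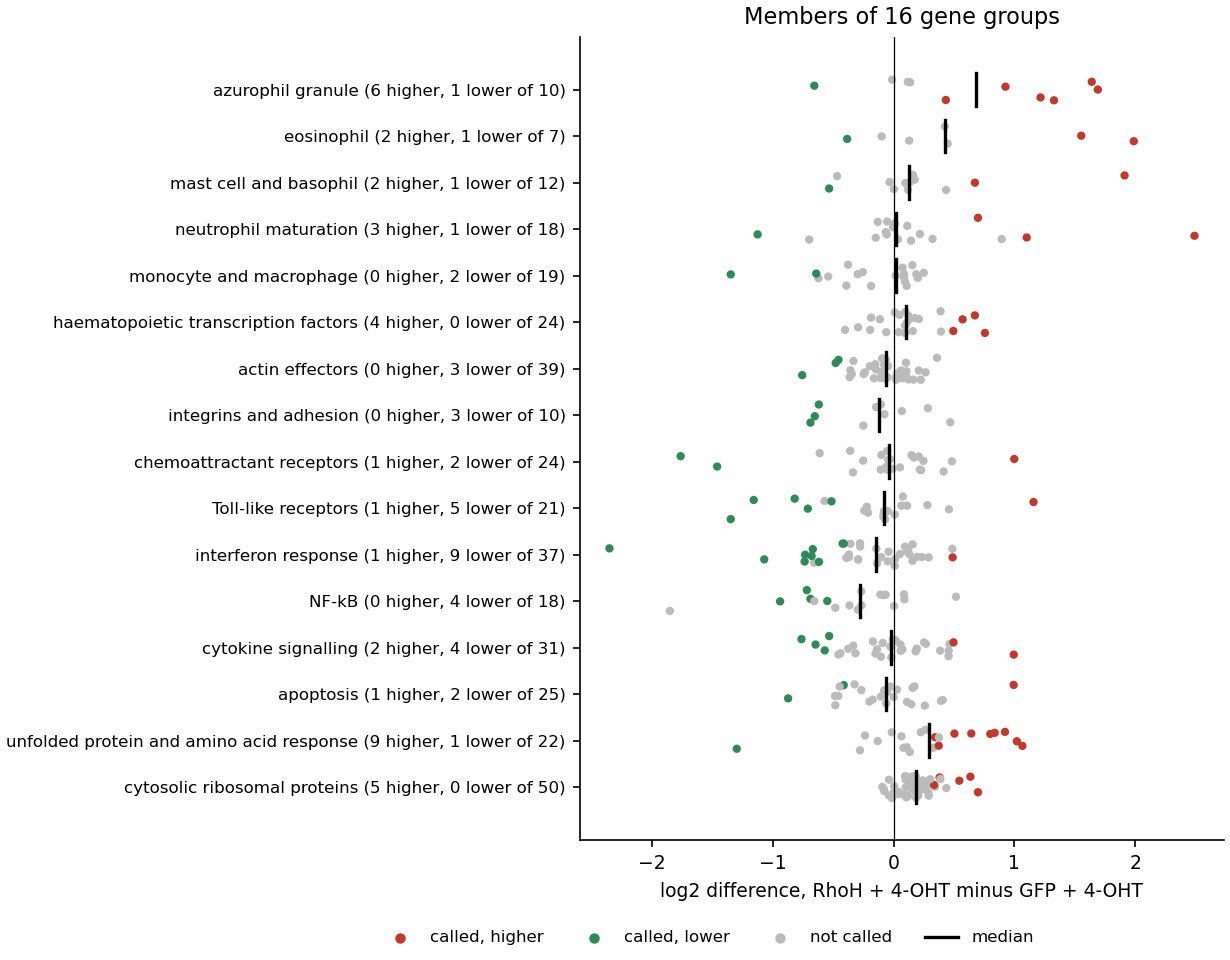
Log2 difference (RhoH + 4-OHT minus GFP + 4-OHT) of each measured member of 16 gene groups, red where called higher, green where called lower and grey where not called; black bars are group medians and the vertical scatter has no meaning. The medians lie between -0.28 (NF-kB) and 0.68 (azurophil granule).

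Among genes lower in RhoH-labelled cells ZNF141, a zinc finger gene of unknown function here, had the largest difference of all genes. It read 4.86, 4.86 and 4.78 in RhoH-labelled arrays and 8.01, 8.15 and 8.03 in GFP-labelled arrays. The difference was -3.23 (SE 0.13), a 9.4-fold lower signal with an adjusted p of 1.85e-06. Uninduced RhoH arrays read 4.86, 4.44 and 4.96, which overlaps the induced ones (difference 0.08, adjusted p 0.889). Its measured neighbours on chromosome 4 did not share the size of the change: ZNF718 had 0.00, ZNF732 -0.11 and PCGF3 -0.38 (adjusted p 0.0484). The PCGF3 call was lost without any 1 of the 6 arrays compared and without uninduced replicate 2 or 3. Over the 491 ZNF genes 7 were higher and 5 lower, 2.44% against 4.49% of all genes. Leaving out 1 array gave 1 to 10 higher and 1 to 7 lower, the called ZNF genes numbering 2, 3 and 5 without GFP-labelled replicate 1, 2 and 3, 7 without RhoH-labelled replicate 2 or 3, and 6 and 5 without uninduced replicate 2 and 3. Without both RhoH replicate 1 arrays 14 were higher and 6 lower.

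CEMIP2, which encodes a cell-surface hyaluronidase, read 7.19, 7.56 and 7.48 against 10.23, 10.27 and 10.33, a difference of -2.87 (SE 0.17, adjusted p 2.58e-05). The uninduced RhoH arrays were lower again, at 5.81, 6.05 and 5.34, and the induced arrays were 1.68 above them (adjusted p 0.000416). CD44, the main hyaluronan receptor, was the other called member of 9 hyaluronan genes, at 6.99, 6.97 and 6.97 against 7.56, 7.59 and 7.73 (-0.65, adjusted p 0.00357). The median of the 9 was -0.04, and 22.2% of them were called against 4.49% of all genes.

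DPYD, whose product degrades uracil and thymine, read 6.62, 6.82 and 6.79 against 9.55, 9.53 and 9.41. Its difference of -2.75 (SE 0.09, 6.74-fold lower) had the smallest SE of the 4 largest, with an adjusted p of 4.59e-07. CDA, the gene of cytidine deaminase, was lower (-0.59), and the other 17 of 19 pyrimidine and nucleotide genes were not called (median 0.05). The called share was 10.5% against 4.49% of all genes. Without any 1 GFP-labelled array or RhoH-labelled replicate 2 only 1 of the 19 was called, and without uninduced replicate 1, 4. TP53INP1, a p53-inducible gene, read 5.54, 5.98 and 5.85 against 8.50, 8.47 and 8.52 (-2.71, adjusted p 4.74e-05). SESN1 (-0.89) and TIGAR (-0.66) were the other called members of 20 p53-inducible genes, all 3 lower. They made 15.0% called against 4.49% of all genes, while the median of the 20 was 0.01. TIGAR kept its call in only 10 of 19 alternatives, with adjusted p up to 0.168. The call was lost with the 6 compared arrays alone, without any 1 GFP-labelled array and without RhoH-labelled replicate 1 or 2.

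LACC1, the gene of a macrophage metabolic enzyme, read 5.75, 5.54 and 5.84 against 8.15, 8.17 and 8.44 (-2.54, adjusted p 8.88e-05). CDON, a cell-surface receptor that binds hedgehog proteins, read 6.86, 6.80 and 7.05 against 9.24, 9.29 and 9.33 (-2.38, adjusted p 1.01e-05). For CDON the 3 groups were all separate, since uninduced RhoH arrays read 5.18, 5.31 and 4.88. MTCL1 (-2.21), which links microtubules, IRS1 (-1.70), the adaptor of the insulin receptor, and SIAH2 (-1.56), a ubiquitin ligase, were also separate between the groups. AQP9 (-1.76), a channel for water and glycerol, OGFRL1 (-1.78), TDRD9 (-1.75), CASZ1 (-1.58), KCTD12 (-1.57), MPND (-1.56), SANBR (-1.52), CDKL1 (-1.47), EFR3B (-1.44) and the antisense RNA ST3GAL6-AS1 (-1.91) complete the coding and long noncoding genes among the 25 lowest, beside GBP4, FPR2 and C5AR1 below. Each of the 25 kept its call in each alternative fit.

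**Figure D4:**
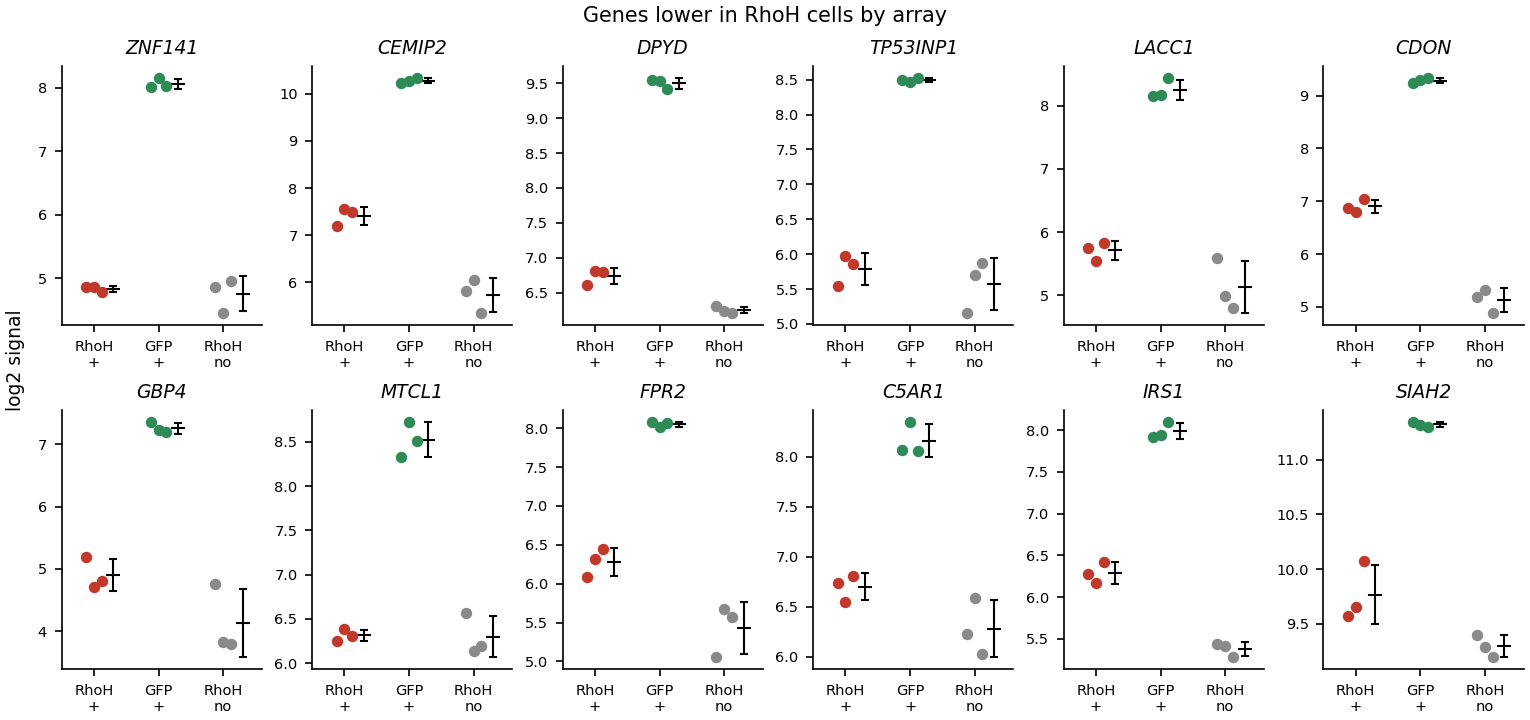
Log2 signal of 12 genes that were lower in RhoH-labelled arrays, by array (points) with group mean and SD (bars), for RhoH + 4-OHT (red), GFP + 4-OHT (green) and RhoH without 4-OHT (grey), 3 arrays each. The green points lie above all red and grey points in each panel, as for ZNF141 with 8.01 to 8.15 in GFP-labelled arrays and 4.78 to 4.86 in RhoH-labelled arrays with 4-OHT.

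Of 24 chemoattractant receptors 2 were lower and 1 higher (12.5% called against 4.49% of all genes), with a median of -0.04. FPR2, a receptor for formylated peptides, read 6.09, 6.31 and 6.45 against 8.08, 8.01 and 8.06, a difference of -1.77 (SE 0.16, adjusted p 0.000207). C5AR1, the receptor of complement C5a, read 6.74, 6.55 and 6.81 against 8.07, 8.35 and 8.06 (-1.46, adjusted p 0.00046). Both were separate between groups. HRH4, the histamine receptor of eosinophils and mast cells, was the higher one (1.00, adjusted p 0.00437).

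Of 21 Toll-like receptor pathway genes 1 was higher (LY96) and 5 lower (28.6% called against 4.49% of all genes), with a median of -0.08. CD14, the lipopolysaccharide co-receptor and a monocyte marker, read 5.77, 5.05 and 5.71 against 7.06, 6.51 and 7.01 (-1.35, adjusted p 0.00726). TLR6 read 6.02, 6.02 and 6.02 against 7.20, 7.24 and 7.11 (-1.16, adjusted p 0.00134), with the identical value on all 3 RhoH-labelled arrays. TLR1 (-0.82), which pairs with TLR2 as TLR6 does, the adaptor MYD88 (-0.71) and the inhibitory kinase IRAK3 (-0.52) were the other 3. The calls of MYD88 and IRAK3 were lost without any 1 GFP-labelled array and without RhoH-labelled replicate 1, and the called members then numbered 4 each time.

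Of 19 monocyte and macrophage markers, CD14 and TREM1 (-0.64, adjusted p 0.0223) were lower and 0 were higher. That is 10.5% called against 4.49% of all genes, with a median of 0.02. Arrays did not overlap for 6 of the 19 in the lower direction and 1 in the higher, against 11.4% and 11.1% of all genes, and 7 had an unadjusted p under 0.05. The TREM1 call was lost without any 1 GFP-labelled array and without RhoH-labelled replicate 1 or 2. CD68 (-0.30), CD86 (-0.62, adjusted p 0.0622), CTSS (-0.54, adjusted p 0.0541), CSF1R (0.02) and CD163 (0.08) were not called. The summed signal of the 19 genes was 5517 to 7717 in RhoH-labelled and 6957 to 7203 in GFP-labelled arrays, and so overlapped. Their mean log2 signal, which weights dim and bright genes equally, did not overlap, at 6.678 to 6.928 in RhoH-labelled and 6.951 to 7.051 in GFP-labelled arrays. Of 26 S100 and annexin genes only S100P was called (0.77, adjusted p 0.0413), a share of 3.85% against 4.49% of all genes. That call was lost in 10 of 19 alternatives, among them the fit on the 6 compared arrays alone and those without any 1 GFP-labelled array, without RhoH-labelled replicate 1 or without uninduced replicate 2 or 3, with adjusted p up to 0.177. Without RhoH-labelled replicate 2 the called members numbered 2.

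Inhibitory and activating receptors of the Siglec and CD300 families, both chosen after their values were seen, had called members in the lower direction only. Siglecs are surface lectins that bind sialic acid. Of 11 measured, SIGLEC7 (-0.99), SIGLEC14 (-0.75), SIGLEC5 (-0.66) and SIGLEC9 (-0.61) were lower, with a family median of -0.37. SIGLEC7 read 6.79, 6.54 and 6.51 against 7.64, 7.54 and 7.64. SIGLEC5 and SIGLEC14 are near-identical in part and are uncertain as separate genes. Of 7 CD300 genes CD300C (-0.61), CD300A (-0.51) and CD300LB (-0.50) were lower, while the family median was 0.01. Without GFP-labelled replicate 1, 2 or 3 the called Siglecs numbered 3, 2 and 2, and the called CD300 genes 1 each time.

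Interferon response genes had 9 of 37 members lower and 1 higher (27.0% called against 4.49% of all genes, median -0.14). GBP4, a guanylate-binding protein induced by interferon, read 5.19, 4.71 and 4.81 against 7.36, 7.23 and 7.19, a difference of -2.35 (SE 0.23, 5.12-fold lower, adjusted p 0.000417). GBP3 next to it read 6.26, 6.50 and 6.96 against 7.53, 7.72 and 7.70 (-1.07, adjusted p 0.0328). GBP5 was not called (0.05), so 2 of the 3 measured GBP genes, a family chosen after its values were seen, were lower. XAF1 (-0.74), SP100 (-0.73), IFNGR1 (-0.68), a chain of the interferon gamma receptor, and IFIT3 (-0.67), an antiviral protein, were lower as well. IFITM2 was higher (0.49). Called members of the list fell to 4 without any 1 GFP-labelled array, and to 7 without RhoH-labelled replicate 1, with GBP3 and IFIT3 among the losses. In uninduced RhoH arrays GBP4 was -3.13, GBP3 -2.76 and IFIT3 -1.78 relative to the same GFP-labelled arrays. Of 7 antigen presentation genes 1, TAPBP, was lower (-0.40), a share of 14.3% against 4.49% of all genes, with a median of -0.35. However, 0 were called without any 1 GFP-labelled array or without RhoH-labelled replicate 2 or 3, and 3 without uninduced replicate 1.

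The promoter windows of 3 of these genes are given because their response to interferon runs through a known element, the interferon-stimulated response element (ISRE). Capitals mark matches to TTTC followed after any 2 bases by a further TTTC, on either strand, in the same RefSeq windows and orientation as above.
GBP4 (chr1:89198893-89199192, minus strand): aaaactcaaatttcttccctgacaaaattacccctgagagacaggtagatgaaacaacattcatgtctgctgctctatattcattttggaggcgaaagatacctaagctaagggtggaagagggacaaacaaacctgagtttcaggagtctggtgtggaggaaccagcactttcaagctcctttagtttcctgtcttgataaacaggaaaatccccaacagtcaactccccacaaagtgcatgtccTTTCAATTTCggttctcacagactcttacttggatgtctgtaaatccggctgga
GBP3 (chr1:89022817-89023116, minus strand): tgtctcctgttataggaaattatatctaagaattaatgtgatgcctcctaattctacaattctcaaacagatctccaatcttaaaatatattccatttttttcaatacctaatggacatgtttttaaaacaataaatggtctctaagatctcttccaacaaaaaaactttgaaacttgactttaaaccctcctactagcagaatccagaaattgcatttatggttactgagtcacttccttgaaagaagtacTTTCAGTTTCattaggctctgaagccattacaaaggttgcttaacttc
IFIT3 (chr10:89327747-89328046, plus strand): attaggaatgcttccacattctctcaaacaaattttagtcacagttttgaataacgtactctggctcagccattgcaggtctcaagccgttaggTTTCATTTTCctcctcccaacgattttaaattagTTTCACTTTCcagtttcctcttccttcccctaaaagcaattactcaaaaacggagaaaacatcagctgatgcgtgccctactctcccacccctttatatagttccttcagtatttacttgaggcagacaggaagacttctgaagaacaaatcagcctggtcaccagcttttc
The motif was found in 5 of the 9 lower interferon genes: GBP3, GBP4, IFIT3 and, named after their values were seen, IFIT5 and DTX3L. It was also found in 12 of the 18 interferon genes with a promoter sequence that were not called, and in 2.93% of the 10719 promoters of tested genes. The presence of these letters thus did not separate the lower from the uncalled members.

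Of 39 actin effectors 3 were lower and 0 higher (7.69% called against 4.49% of all genes, median -0.07). EZR, the gene of ezrin, which ties the membrane to actin, read 10.23, 10.44 and 10.70 against 11.14, 11.26 and 11.23 (-0.76, adjusted p 0.00582). WASL (-0.48), an activator of actin branching, and CDC42SE2 (-0.46) lost their calls without any 1 GFP-labelled array, so that 1 member was then called. A list named RhoH signalling partners had 15 measured genes, and whether each acts with RhoH in these cells was not tested. Of the 15, PAG1 (-0.63), an adaptor that recruits the kinase Csk, and FGR (-0.56), a Src-family kinase, were lower (13.3% called, median -0.13). In that list 0 were called without any 1 GFP-labelled array. Of 10 integrin and adhesion genes 3 were lower and 0 higher (30.0% called against 4.49% of all genes, median -0.13). These were ICAM1 (-0.69), a ligand of leukocyte integrins, CD44 and CD58 (-0.62), the ligand of CD2.

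Of 31 cytokine signalling genes 2 were higher and 4 lower (19.4% called against 4.49% of all genes, median -0.02), and 3 were called without GFP-labelled replicate 1. FLT3, a receptor kinase of progenitors, was higher at 8.58, 8.66 and 8.62 against 7.66, 7.58 and 7.63 (1.00, adjusted p 0.00606), as was SOCS6 (0.50). IL18R1 (-0.76), IL1RAP (-0.65), IL6R (-0.57) and KIT were lower. Of 18 NF-kB pathway and target genes 4 were lower and 0 higher (22.2% called against 4.49% of all genes), with a median of -0.28. The 4 were PTGS2 (-0.94), REL (-0.72), ICAM1 and CHUK (-0.55). The lowest difference of the group, -1.85, belonged to a member that was not called. REL, an NF-kB subunit, read 8.76, 8.998 and 8.85 against 9.58, 9.60 and 9.59. For PTGS2, the inducible cyclooxygenase, GFP-labelled replicate 1 stood apart, with 5.30, 5.13 and 5.43 against 6.85, 5.93 and 5.90. The PTGS2 call was lost in 12 of 18 alternatives, which include leaving out any 1 array other than GFP-labelled replicate 1, with adjusted p up to 0.112. The CHUK call was lost without GFP-labelled replicate 2 or 3 (up to 0.0763), and in either case 2 of the 18 genes were called. Of 18 chemokines CCL4 (-0.97) and CCL22 (-0.51) were lower (11.1% called against 4.49% of all genes, median -0.13). Here too the lowest difference, -1.85, belonged to a member that was not called. Without GFP-labelled replicate 1 or 3 none was called, and without GFP-labelled replicate 2, RhoH-labelled replicate 2 or uninduced replicate 2 or 3, 1 was. Of 24 immediate early genes 0 were called by limma and 6 had an unadjusted p under 0.05 (median -0.10), although the number called was 3 without RhoH-labelled replicate 3, 1 without uninduced replicate 1 and 5 with array weights.

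BCL2, the inhibitor of apoptosis, was higher at 9.91, 10.11 and 9.94 against 9.06, 9.06 and 8.86 (0.99, adjusted p 0.00055). In the same list of 25 apoptosis genes BIRC2 (-0.87) and BID (-0.41) were lower, with a median of -0.06, and 5 members were called without RhoH-labelled replicate 3. Targets of the oestrogen receptor were examined because 4-OHT, which both groups received, binds it. Of 20, RET (0.98), MYB and XBP1 (0.50) were higher and SIAH2 lower (median 0.04). The calls of MYB and XBP1 were lost without any 1 GFP-labelled array, which left RET as the 1 higher gene. Of 19 hypoxia and glycolysis genes NDRG1 (0.69) and VEGFA (0.60) were higher and the hexokinases HK1 (-0.93) and HK2 (-0.67) lower (21.1% called, median 0.04). Without any 1 GFP-labelled array 2 of these 19 were called. SQLE (0.70) was the called gene of 20 in cholesterol synthesis (5.0%), and HSPA1B (-0.69) the called gene of 14 heat shock genes (7.14%). Over all genes 4.49% were called. The SQLE call was lost without GFP-labelled replicate 2 or 3, and 2 heat shock genes were called without RhoH-labelled replicate 3.

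Of 1022 genes annotated as microRNAs 15 were called, 3 higher and 12 lower, which is 1.47% against 4.49% of all genes. Over the 1047 genes with microRNA symbols, which include host transcripts, 3 were higher and 13 lower. Leaving out 1 array gave 1 to 7 higher and 9 to 31 lower of these, with 37 called without RhoH-labelled replicate 2 and 10 without GFP-labelled replicate 1 or 2. MIR223, a microRNA of the granulocyte lineage, read 10.36, 10.52 and 10.44 against 9.68, 9.88 and 9.94, a difference of 0.60 (adjusted p 0.00554). MIR3671, MIR4439 and MIR4802 were among the 25 lowest genes of all, with differences of -1.92, -1.87 and -1.79. The probe sets of the latter 2 were dim, at 3.00, 3.39 and 2.70 against 4.58, 5.31 and 4.82 for MIR4439 and 2.74, 3.34 and 2.57 against 4.26, 4.94 and 4.83 for MIR4802. Mature sequences of these 4 genes from RefSeq (GRCh38.p14) are shown with the seed, bases 2 to 8, in capitals, since each has a seed of its own.
hsa-miR-223-3p (chrX:66018937-66018958, plus strand): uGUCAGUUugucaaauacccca
hsa-miR-223-5p (chrX:66018895-66018916, plus strand): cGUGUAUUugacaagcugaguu
hsa-miR-3671 (chr1:65057762-65057783, minus strand): aUCAAAUAaggacuagucugca
hsa-miR-4439 (chr2:225010516-225010537, minus strand): gUGACUGAuaccuuggaggcau
hsa-miR-4802-5p (chr4:40502086-40502107, minus strand): uAUGGAGGuucuagaccauguu
hsa-miR-4802-3p (chr4:40502051-40502073, minus strand): uACAUGGAuggaaaccuucaagc
The 18 mature sequences of the 15 called genes held 18 distinct seeds, so the called microRNAs did not form a seed family. MIR4439 lies within DOCK10, which was itself lower (-1.33), and MIR4802 within RBM47, also lower (adjusted p 0.000634), whereas MIR3671 lies within JAK1, which was not called (-0.15). Whether signal at a microRNA gene came from the longer transcript around it was not tested. RBM47 also lies next to RHOH among the genes measured, while N4BP2, on the other side of RHOH, was not called (0.06, limma adjusted p 0.867). MIR124-1HG, the host transcript of a microRNA, was lower at 7.59, 7.96 and 7.96 against 9.16, 9.25 and 9.06 (-1.32), and uninduced RhoH arrays read 4.45, 4.34 and 4.20. Of 452 long intergenic noncoding RNAs 2 were higher and 6 lower, 1.77% against 4.49% of all genes. Those called numbered 2, 1 and 1 without GFP-labelled replicate 1, 2 and 3, 4 without RhoH-labelled replicate 1, and 5 and 4 without uninduced replicate 2 and 3.

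Among 11873 pairs of adjacent measured protein-coding genes both were called in 50. Where the first gene of a pair was called the second was called too in 8.2%, against 5.13% of all protein-coding genes. Of the 50 pairs 39 changed in 1 direction and 11 in opposite directions. On chromosome 19 AZU1, PRTN3 and CFD (0.82), the gene of complement factor D, were all higher, while the flanking genes PLPPR3 (0.29) and MED16 (0.01) were not called. The CFD call was lost with the 6 compared arrays alone, with all probe sets and without any 1 GFP-labelled array (adjusted p up to 0.105). On chromosome 17 EPX, MPO and TSPOAP1 were higher, but LPO, which lies between EPX and MPO, was not called (0.23). Runs of lower genes were GBP3 and GBP4, TLR1 and TLR6, the 3 CD300 genes, SIGLEC9 and SIGLEC7, SIGLEC5 and SIGLEC14, LACC1 and CCDC122 (-1.42), and IL18R1 and IL18RAP (-1.42). The called share by chromosome ran from 2.69% on chromosome 20 to 8.91% on chromosome 13.

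**Figure D5:**
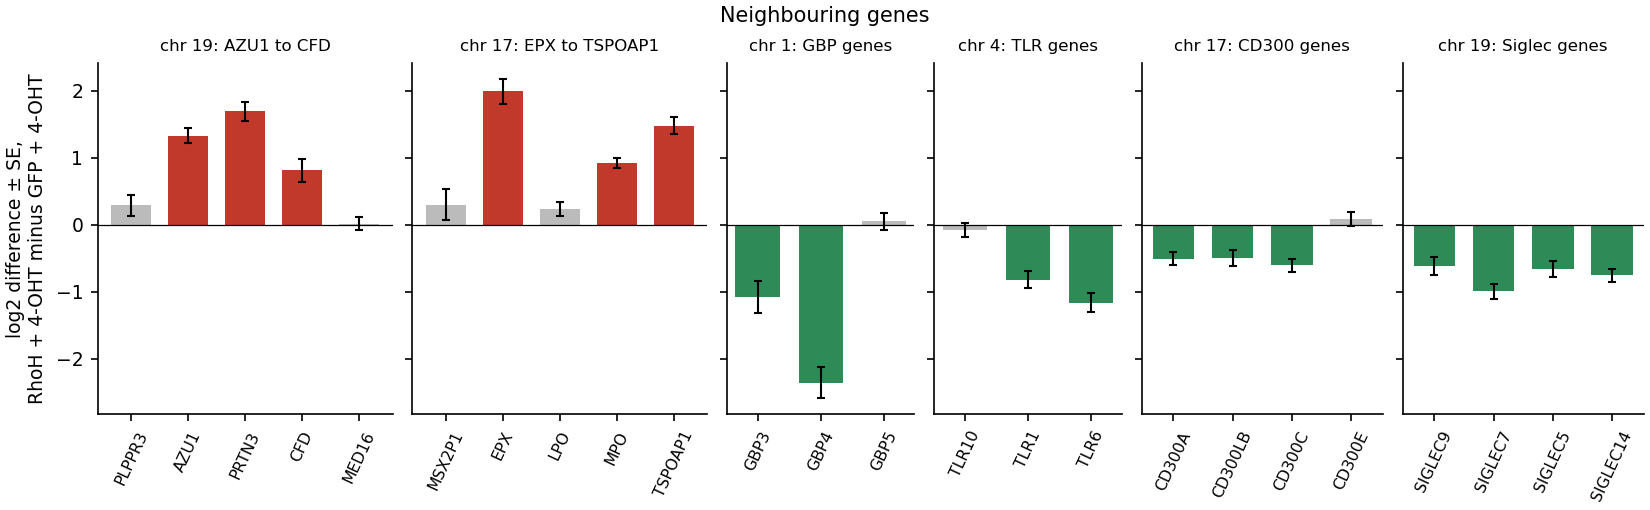
Log2 difference (RhoH + 4-OHT minus GFP + 4-OHT) with the SE of the fit, for called genes that lie next to each other and some flanking genes, in chromosome order within each panel and not to scale. Bars are red where called higher, green where called lower and grey where not called. EPX (1.99) and MPO (0.93) stand on either side of the grey LPO bar at 0.23.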

How the data were processed

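Total RNA from HL-60 clone 15 cells was measured on 9 Affymetrix whole-transcript arrays, 3 per group, of which the 6 with 4-OHT form the comparison. The table that the authors deposited holds 1 log2 signal per array for each of 43550 probe sets. The submitters' processing notes name RMA, Affymetrix Power Tools and limma, and their versions are not given in the sources used here. The RMA method removes background, quantile-normalizes the arrays, combines the probes of a probe set and compresses low signals. No further normalization was applied. The values hold no counts, and the number of arrays limits the precision.

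A platform annotation table gave 1 gene symbol for 15659 probe sets and none for 27891, and all 15659 Entrez identifiers matched RefSeq (GRCh38.p14), whose coordinates and sequences are quoted. The files name no genome build. For the 521 genes with over 1 probe set the one with the highest mean over all 9 arrays was used, leaving 14778 genes. A linear model with 3 group means over the 9 arrays was fitted with limma 3.58.1 in R 4.3.3 (6 residual and 3.86 prior degrees of freedom). Adjusted p-values are Benjamini-Hochberg over all 14778 genes, and a gene is called under 0.05. SE is that of the fit. The fit was also run on simulated data with normal noise, of the same SD on all 9 arrays for a given probe set. That setting leaves out the wider spread of the RhoH-labelled arrays, so it does not test the fit against it.

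Named genes are RHOH, the 25 highest and 25 lowest differences among called genes without overlap between groups, and the called members of each list (the 6 largest where over 6 changed one way), with defining markers. Neighbours, microRNA hosts and genes so described were named after their values were seen. Of the 1059 symbols on the 37 lists, 683 had a probe set, and 2 lists are not reported here. Members and lists were chosen with earlier results of these data known. Alternatives changed the samples, weights, scaling, probe set rule and filter, 1 at a time.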

Additional observations from a re-analysis of the deposited data

How the results depend on the processing

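The comparison gave 664 called genes, 257 higher and 407 lower, of which 38.7% were higher. Array weights gave 1176 (509 and 667), and adjustment over all probe sets 403 (142 and 261), where more features were tested. With arrays centred on their medians 141 were higher and 30.1% of calls were higher, and after a further quantile normalization 416 and 47.2%. Requiring a 2-fold change as well left 116. Leaving out 1 array gave 279 to 861 calls, 91 to 319 higher and 176 to 542 lower, the lowest counts each time without a GFP-labelled array. Leaving out both RhoH replicate 1 arrays gave 512 higher and 478 lower, and 606 of the 664 genes were still called the same way. Except where construction shows it, the cause was not tested. With the 6 compared arrays alone 560 genes were called.

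The RHOH difference ranged from -0.40 to -0.26 over the fits that left out 1 array, and passed the threshold in 1 of them (-0.40, adjusted p 0.0495). The highest adjusted p of RHOH under any alternative was 0.236. The replicate numbers were not taken as pairs. Deviations of same-numbered RhoH-labelled and GFP-labelled arrays correlated at 0.101, 0.154 and 0.008, and those of different-numbered ones at -0.125 to 0.015. Between uninduced and induced RhoH arrays the same-numbered values were 0.543, 0.368 and 0.065, and the different-numbered ones -0.496 to 0.395. These values do not settle whether the numbers mark pairs. With the replicate number as a block 820 genes were called (316 higher, 504 lower). Of the 50 highest and lowest genes 45 kept their call in every alternative, the exceptions being CENPV, CLC, MT2A, PRXL2C and ZNF347. Of all 225 called genes tracked 117 did so, and 0 reversed. The medians of the neutrophil, monocyte, p53, cholesterol, cytokine, microRNA and CD300 groups, all near 0, changed sign with the scaling.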
